A study of Mus musculus with 25 samples.

Results

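MicroRNA levels were compared between 8 mammary tumours that carried a Met transgene together with a Trp53 deletion (MetTrp53) and 8 mammary tumours that carried the Trp53 deletion without the transgene (Trp53), 16 of the 25 arrays of the series. The 16 tumours were taken by their labelled genotype. MetTrp53 tumours were labelled MMTV-Met;Trp53fl/+ and Trp53 tumours Trp53fl/+, all from female mice of the FVB strain, and the series' design names a Cre recombinase in both. The groups therefore share the floxed Trp53 allele, the Cre and the strain, and differ by the transgene, which the promoter of the mouse mammary tumour virus drives. The labels give 1 wild-type Trp53 allele in both genotypes and say nothing of its loss in the tumours. The ages of the mice and the promoter of the Cre are not given in the sources used here. MetTrp53 tumours were spindloid in 3 cases, adenocarcinoma in 1, poorly differentiated adenocarcinoma in 2, intermediate in 1 and of no stated pathology in 1. Trp53 tumours were spindloid in 3 cases, adenocarcinoma in 2, poorly differentiated adenocarcinoma in 1 and intermediate in 2. Parity was multiparous for 2 and nulliparous for 6 MetTrp53 tumours, and multiparous for 2, nulliparous for 3 and not stated for 3 Trp53 tumours. Trp53 tumours 2 and 3 share a number in their titles, and so do Trp53 tumours 4 and 8, so that they may come from the same mouse. Nothing says that the other tumours came from separate mice, and p-values measure a spread between tumours. In the limma p-values of the main comparison that spread is pooled over all 25 arrays. The other 9 arrays held 7 Met tumours and 2 pools of normal mammary gland. They entered the main model for the estimate of the spread, and also the choice of the tested miRNAs, the scaling and the floor.

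A microRNA (miRNA) is cut as a short RNA from either arm of a hairpin and guides a silencing complex to messenger RNAs that match its seed, the bases near its 5′ end. Met is the receptor tyrosine kinase for hepatocyte growth factor and drives growth, motility and invasion of epithelial cells. Trp53 encodes p53, a transcription factor that halts or kills damaged cells and that directly induces some miRNAs, the miR-34 family among them. In mammary tumours the miR-200 family and miR-205 mark epithelial cells, where they repress the transcription factors Zeb1 and Zeb2, and they are low in spindle-shaped or claudin-low tumours.

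The sequences behind the results are given here from RefSeq on the build GRCm38.p6, with the seed (bases 2 to 8) in capitals. Both arms of the miR-652 hairpin are shown because the 5p arm had the smallest p of the comparison and the 3p arm differed in the other direction.
miR-652-5p: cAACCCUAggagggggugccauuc
miR-652-3p: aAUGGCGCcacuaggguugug
They lie on the plus strand at chrX:142739020-142739043 and chrX:142739060-142739080.

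The miR-99b, let-7e and miR-125a cluster is shown because its leading arms all had lower means in MetTrp53 tumours, and let-7a and let-7d because they carry the seed of let-7e.
miR-99b-5p: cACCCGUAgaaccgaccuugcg
let-7e-5p: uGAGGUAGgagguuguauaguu
miR-125a-5p: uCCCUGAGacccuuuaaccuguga
let-7a-5p: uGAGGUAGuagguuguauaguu
let-7d-5p: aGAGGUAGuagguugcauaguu
The 3 cluster members lie within 647 bases on the plus strand of chromosome 17, at chr17:17830194-17830215, chr17:17830366-17830387 and chr17:17830817-17830840. Counted from the 5′ end, let-7e differs from let-7a by U9G, outside the seed, and let-7d differs from let-7a by U1A and U16C.

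The next set holds 3 of the 10 miRNAs with the smallest p, all with higher means in MetTrp53 tumours, and here the capitals mark the longest run of bases that the 3 share.
miR-3968: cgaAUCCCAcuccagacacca
miR-5100: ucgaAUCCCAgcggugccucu
miR-3963: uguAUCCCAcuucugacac
They lie at chr11:115447969-115447989 on the minus strand, chr11:60728698-60728718 on the plus strand and chr3:151023839-151023857 on the minus strand. The run AUCCCA, read on the RNA strand alone, stands in 3 of the 253 tested miRNAs with a sequence (1.19%) and in 7 of 1679 mature sequences of the table (0.417%). The run was found from these 3 sequences, so its presence in them is no finding.

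The miR-200 family is shown because it was among the most variable between tumours of the same genotype, and because its 2 clusters parted in 1 tumour.
miR-200b-3p: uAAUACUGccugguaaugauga
miR-429-3p: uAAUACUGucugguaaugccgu
miR-200a-3p: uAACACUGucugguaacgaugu
miR-200c-3p: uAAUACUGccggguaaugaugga
miR-141-3p: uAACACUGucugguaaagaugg
The first 3 come from a cluster on chromosome 4 and the last 2 from a cluster on chromosome 6, all on the minus strand. The seed of miR-200b, miR-429 and miR-200c differs from that shared by miR-200a and miR-141.

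Levels are log2 intensities scaled to a common percentile on each array, with a floor at 3.61 under which values have no order. Between 249 and 334 mouse miRNAs were detected in the MetTrp53 tumours and between 252 and 309 in the Trp53 tumours (exact permutation test, two-sided, p = 0.624). The scaling percentile ran from 364 to 915 intensity units in MetTrp53 tumours and from 359 to 693 in Trp53 tumours (exact permutation p = 0.432). Across the 330 miRNAs tested, which are not independent replicates, MetTrp53 tumours correlated with Trp53 tumours at a median r of 0.922, against 0.919 within MetTrp53 and 0.922 within Trp53. The tumours least like the rest were MetTrp53 3, MetTrp53 5, Trp53 2 and Trp53 3, whose median r with the other tumours lay between 0.853 and 0.877. The pairs that share a title number correlated at r = 0.859 (Trp53 2 and 3) and 0.919 (Trp53 4 and 8), both below the median within Trp53.

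The question of the comparison was what the Met transgene adds to the Trp53 deletion. No miRNA of the 330 tested passed an adjusted p under 0.05 between MetTrp53 and Trp53 tumours (0.00%, limma with Benjamini-Hochberg adjustment, smallest adjusted p = 0.186). At an unadjusted p under 0.05 there were 23 miRNAs (6.97%), 13 with a higher mean (3.94%) and 10 with a lower mean (3.03%) in MetTrp53 tumours. An exact permutation of the tumours over all 12870 splits gave 25 miRNAs at an unadjusted p under 0.05 and 0 after adjustment. In no miRNA did the 8 MetTrp53 values and the 8 Trp53 values fail to overlap (0.00%). The mean was above that of Trp53 tumours in 178 miRNAs (53.9%) and below it in 144 (43.6%). In 229 of the 330 (69.4%) the 95% interval of the difference lay within 1 on the log2 scale, a 2-fold difference in either direction. The median difference was 0.01 on the log2 scale, its median size without the sign 0.16, and the median standard error (SE) 0.23. The share, the median size and the median SE take in miRNAs at or near the floor, which narrows differences and intervals. Of the 330, 231 were well above background on at least 8 of the 16 tumour arrays, and closeness at the floor is no measured similarity. Only 6 miRNAs had means that differed by more than 1 on the log2 scale. In the plot of group means by genotype the miRNAs lie close to the line of equal levels.

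**Figure D1:**
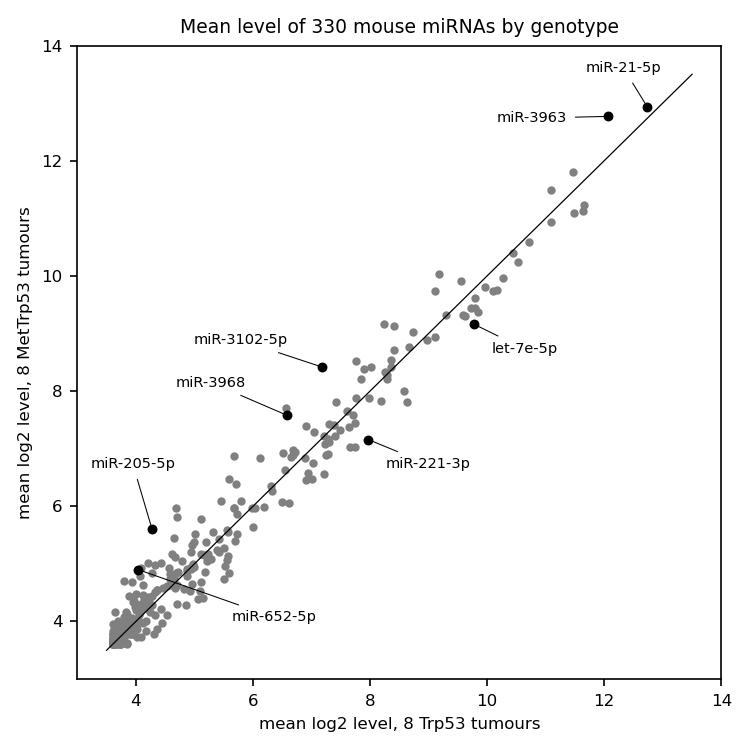
Each point is 1 of the 330 tested miRNAs, with its mean log2 level in the 8 Trp53 tumours on the x axis and in the 8 MetTrp53 tumours on the y axis. The line marks equal means, and the median difference is 0.01; miR-3968 and miR-3102-5p lie above the line and let-7e-5p and miR-221-3p below it, and 0 of the 330 passed the adjusted threshold.

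The smallest p belonged to the 5p arm of miR-652. In MetTrp53 tumours miR-652-5p had a lowest level of 4.27, a median of 4.71 and a highest level of 5.91, against 3.61, 4.08 and 4.51 in Trp53 tumours. The groups overlapped, with 6 of 8 MetTrp53 tumours above the highest Trp53 tumour, and the highest levels were in MetTrp53 tumours 3 and 7. The difference was 0.86 (SE 0.22, n = 8 and 8, limma adjusted p = 0.186, exact permutation p = 0.000777). These levels are close to the floor, and with normexp background correction the difference was 0.22. That correction adds an offset of 50 intensity units, which narrows differences at low levels, and its share in the change was not tested. The 3p arm of the same hairpin ran the other way. miR-652-3p had a lowest level of 5.67, a median of 6.52 and a highest level of 6.96 in MetTrp53 tumours, against 6.61, 7.00 and 7.75 in Trp53 tumours. Of the 8 MetTrp53 tumours, 4 lay below the lowest Trp53 tumour, and the difference was -0.55 (SE 0.20, limma adjusted p = 0.291, exact permutation p = 0.0101). MetTrp53 5, with 5.67, was the lowest tumour, and Trp53 6, with 7.75, the highest.

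Among the 10 miRNAs with the smallest p, miR-3968, miR-5100, miR-3963, miR-720 and miR-5097 had higher means in MetTrp53 tumours and are described together. These 5 were put together after their values were seen, because their highest levels fell in the same tumours. miR-3968 had a lowest level of 6.49, a median of 7.38 and a highest level of 8.79 in MetTrp53 tumours, against 5.83, 6.62 and 6.99 in Trp53 tumours, with a difference of 0.996 (SE 0.28, limma adjusted p = 0.186). Its 7 MetTrp53 tumours other than MetTrp53 2 lay above every Trp53 tumour. miR-5100 had a lowest level of 8.24, a median of 8.97 and a highest level of 10.49 in MetTrp53 tumours, against 7.61, 8.35 and 8.83 in Trp53 tumours, with a difference of 0.93 (SE 0.27, adjusted p = 0.186). miR-3963 had a lowest level of 12.06, a median of 12.64 and a highest level of 13.64 in MetTrp53 tumours, against 11.62, 12.08 and 12.35 in Trp53 tumours, with a difference of 0.70 (SE 0.23, limma adjusted p = 0.238). These are the 3 sequences printed above with AUCCCA in capitals. miR-720, whose human counterpart has been recognised as a fragment of a transfer RNA, differed by 0.85 (SE 0.26, adjusted p = 0.186), with a range of 9.34 to 11.35 in MetTrp53 tumours and of 8.45 to 9.63 in Trp53 tumours. miR-5097 differed by 1.13 (SE 0.38, adjusted p = 0.253), with a range of 6.91 to 9.28 in MetTrp53 tumours and of 4.99 to 7.36 in Trp53 tumours. In all 5 the same tumours, MetTrp53 3 and MetTrp53 7, held the highest 2 levels, with 280 and 286 miRNAs detected, inside the range of the other tumours, and in miR-5100, miR-720 and miR-5097 at least 3 MetTrp53 tumours lay within the Trp53 range. No role is known with confidence for these RNAs. miR-3102-5p, also with a higher mean, was highest in MetTrp53 2 and MetTrp53 7. It reached 9.81 in MetTrp53 2 and 9.23 in MetTrp53 7, from a lowest MetTrp53 level of 7.28, against 5.98 to 7.95 in Trp53 tumours, and differed by 1.23 (SE 0.41, adjusted p = 0.238).

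**Figure D2:**
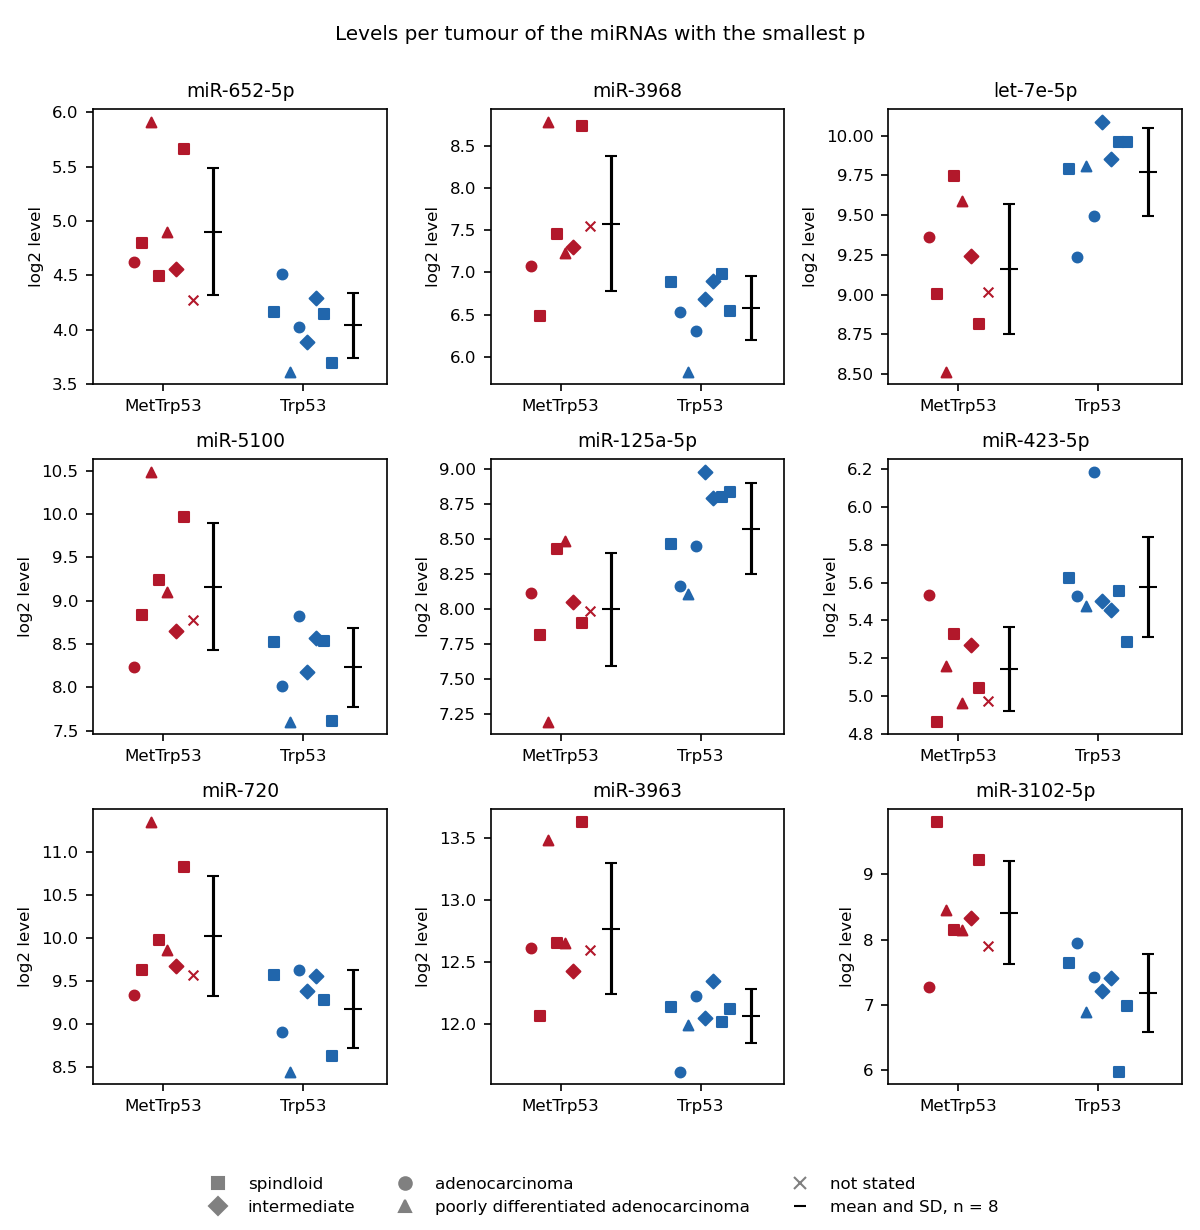
Log2 level of the 9 miRNAs with the smallest p in each MetTrp53 tumour (left, red) and each Trp53 tumour (right, blue), with the symbol giving the stated pathology and the black bar the mean and SD of the 8 tumours; each panel has its own y axis. The groups overlap in all 9 panels, and MetTrp53 3 and MetTrp53 7 are the highest tumours for miR-652-5p, miR-3968, miR-5100, miR-720 and miR-3963.

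The miR-99b, let-7e and miR-125a cluster on chromosome 17 had lower means in MetTrp53 tumours. let-7e-5p belongs to a family that represses Hmga2, Ras and Lin28 in differentiated cells. It had a lowest level of 8.52, a median of 9.13 and a highest level of 9.74 in MetTrp53 tumours, against 9.24, 9.83 and 10.09 in Trp53 tumours. Of the MetTrp53 tumours 4 of 8 lay below the lowest Trp53 tumour, and the difference was -0.61 (SE 0.18, limma adjusted p = 0.186). miR-125a-5p, a relative of the worm lin-4 RNA, had a lowest level of 7.20, a median of 8.02 and a highest level of 8.48 in MetTrp53 tumours, against 8.11, 8.63 and 8.98 in Trp53 tumours, with a difference of -0.58 (SE 0.18, adjusted p = 0.186). miR-99b-5p had a lowest level of 6.30, a median of 7.03 and a highest level of 7.53 in MetTrp53 tumours, against 6.83, 7.59 and 8.41 in Trp53 tumours, with a difference of -0.62 (SE 0.25, adjusted p = 0.351). In all 3 members MetTrp53 3 was the lowest tumour and Trp53 5 the highest.

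The other miRNAs with the let-7 seed differed unequally. let-7a-5p averaged 11.10 in MetTrp53 tumours and 11.48 in Trp53 tumours, a difference of -0.38 (SE 0.18, limma adjusted p = 0.647, exact permutation p = 0.0587). let-7d-5p averaged 9.96 in MetTrp53 tumours and 10.27 in Trp53 tumours, a difference of -0.31 (SE 0.14, limma adjusted p = 0.535, exact permutation p = 0.0598). let-7g-5p, let-7i-5p and miR-98-5p, with the same seed, differed by 0.02, -0.05 and 0.07 (SE 0.19, 0.18 and 0.21). Over the 9 members of the let-7 family, 7 had a lower and 2 a higher mean in MetTrp53 tumours, 3 lay at an unadjusted p under 0.05, all lower, and the median difference was -0.31. Over all 330 miRNAs, 43.6% had a lower mean, 3.03% lay lower at an unadjusted p under 0.05, and the median was 0.01. Of the 3, let-7a-5p and let-7d-5p lay above 0.05 in the exact permutation test. let-7d-5p and let-7e-5p differ from let-7a-5p by only 2 and 1 bases, and whether the probes tell them apart was not tested. The directions of the family members are therefore not separate results. The family median was below 0 under each of the 4 other scalings tried, between -0.25 and -0.60. miR-423-5p, from outside these families, had a lowest level of 4.86, a median of 5.10 and a highest level of 5.53 in MetTrp53 tumours, against 5.28, 5.52 and 6.19 in Trp53 tumours. Of the MetTrp53 tumours 6 of 8 lay below the lowest Trp53 tumour, and the difference was -0.43 (SE 0.13, adjusted p = 0.186).

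The largest differences in mean often had wide intervals, in miRNAs that varied strongly within each genotype. They are listed here among miRNAs well above background on at least 8 of the 16 tumour arrays. miR-205-5p had a larger difference (1.34, SE 0.90) but did not meet this condition. With a higher mean in MetTrp53 tumours stood miR-96-5p (1.28, SE 0.69, limma adjusted p = 0.727), miR-148a-3p (1.21, SE 0.66, 0.727), miR-200c-3p (1.10, SE 1.16, 0.903), miR-877-5p (0.89, SE 0.39, 0.509) and miR-146b-5p (0.88, SE 0.64, 0.884). With a lower mean stood miR-199b-5p (-0.83, SE 0.65, limma adjusted p = 0.893), miR-221-3p (-0.81, SE 0.61, 0.885), miR-132-3p (-0.77, SE 0.70, 0.893), miR-3107-5p (-0.75, SE 0.48, 0.800) and miR-99a-5p (-0.70, SE 0.37, 0.727). miR-1927 (-0.66, SE 0.43, limma adjusted p = 0.800) and miR-193b-3p (-0.65, SE 0.62, 0.893) completed the set. The 95% interval of the difference in miR-200c-3p ran from -1.30 to 3.51, so a difference of over 2-fold in either direction lies inside it.

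**Figure D3:**
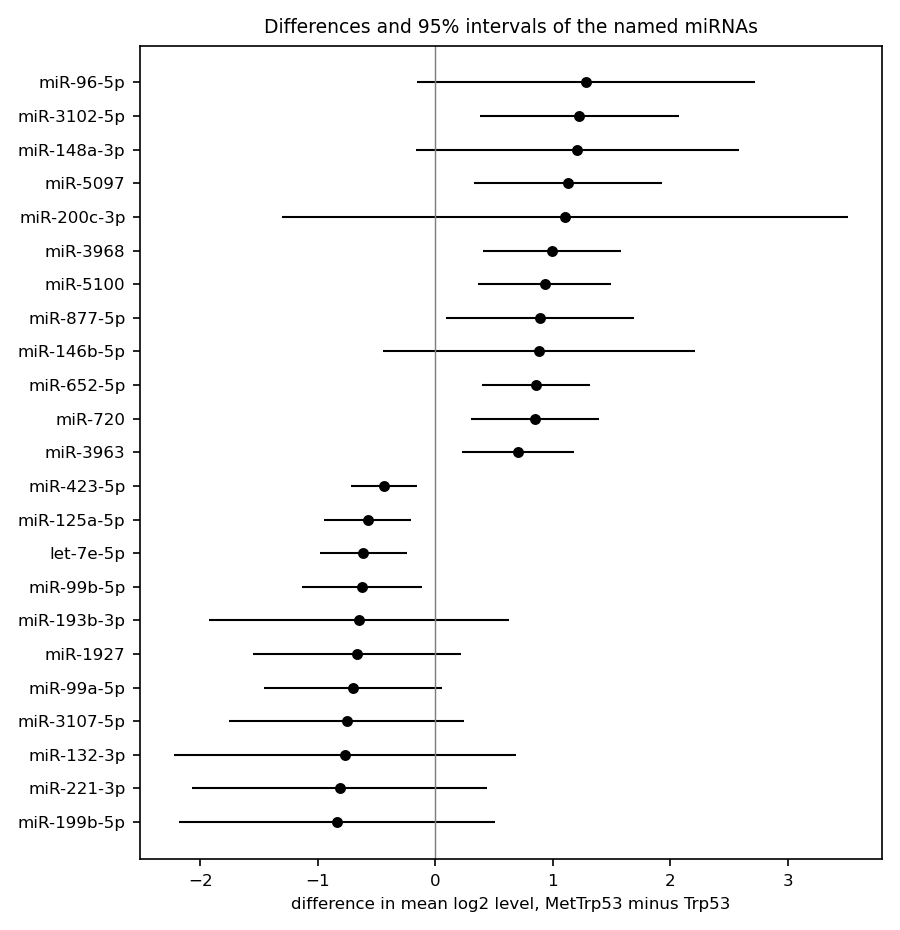
Difference in mean log2 level, MetTrp53 minus Trp53 (x axis), with its 95% interval from limma, for the miRNAs with the smallest p and the largest differences (y axis, sorted by difference; n = 8 and 8). The intervals of the epithelial miRNAs miR-96-5p and miR-200c-3p are wide and span 0, and those of let-7e-5p and miR-423-5p are narrow and lie below 0 before adjustment.

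The miRNAs nearest to the altered genes showed no call. Of 7 p53-induced miRNAs 6 were tested, with 0 called, 0 at an unadjusted p under 0.05, and differences between -0.36 (miR-107-3p) and 0.20 (miR-34a-5p). Their median was 0.02 and lay below 0 under all 4 other scalings tried, between -0.04 and -0.16. miR-34a-5p, a direct p53 target, averaged 6.86 ± 0.65 in MetTrp53 tumours and 6.66 ± 0.40 in Trp53 tumours (SD, n = 8 each), and the 95% interval of its difference ran from -0.41 to 0.82. Of 9 miRNAs that can repress Met, 8 were tested, again with 0 called and 0 at an unadjusted p under 0.05, and a median difference of -0.04, which kept its sign under the other scalings. Of 6 miRNAs that follow growth factor signalling, all were tested and 0 called, with a median of -0.18 that kept its sign under the other scalings. Among them miR-21-5p averaged 12.94 in MetTrp53 tumours and 12.73 in Trp53 tumours (difference 0.20, SE 0.45), and miR-31-5p averaged 9.13 in MetTrp53 tumours and 8.40 in Trp53 tumours (0.73, SE 0.90). miR-221-3p and miR-222-3p, a pair that represses the cell cycle inhibitor p27, had differences of -0.81 (SE 0.61) and -0.56 (SE 0.54). In the miR-17-92 cluster and its paralogs, which promote proliferation, 10 of 11 members were tested and 0 called, with the largest difference in miR-19a-3p (0.80, SE 0.39, limma adjusted p = 0.710). The median difference of 0.16 over these members became -0.08 when all mouse probes set the percentile. The miR-29 and miR-30 families (8 tested, median 0.09) and the miR-15 and miR-16 families (6 tested, median -0.04) had 0 members at an unadjusted p under 0.05. Neither median held its sign: the first lay below 0 under all 4 other scalings, down to -0.19, and the second at 0.01 under quantile normalisation and in the authors' deposited table. In the imprinted Dlk1-Dio3 cluster 11 of 30 members were tested, all with a higher mean in MetTrp53 tumours (median 0.23, and between 0.06 and 0.23 under the other scalings), against 53.9% of all 330, and miR-494-3p alone lay at an unadjusted p under 0.05 (0.41, SE 0.16). The other 10 had differences between 0.08 and 0.28. The mean level over the 11 was 5.72 in MetTrp53 4 and between 4.09 and 4.92 in the other MetTrp53 tumours, against 4.02 to 4.91 in Trp53 tumours. Its medians were 4.30 and 4.21, so the higher means lean on 1 tumour. The members share a cluster, and their common direction is not 11 separate results.

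Markers of other cell types were compared in the same way, with 0 members called and 0 at an unadjusted p under 0.05 in each list. All 5 miR-200 family members had a higher mean in MetTrp53 tumours (median difference 0.66), as had all 6 tested of 7 other epithelial miRNAs (0.93), against 53.9% of all 330 miRNAs. Under the 4 other scalings the medians lay between 0.32 and 1.10 and between 0.41 and 0.99, lowest with normexp (offset 50). The mean level of the miR-200 family ran from 3.61 through a median of 4.33 to 9.12 in MetTrp53 tumours, and from 3.61 through 3.67 to 8.48 in Trp53 tumours. Its 5 members come from 2 clusters, so their directions are not independent. Among spindloid tumours miR-200c-3p, miR-200b-3p, miR-429-3p and miR-141-3p differed by -0.09, -0.003, -0.10 and 0.14. Most of these spindloid values lay at or near the floor, with genotype means between 3.61 and 4.07. The small differences there are no measured similarity. Among adenocarcinomas they differed by 2.72, 1.33, 0.95 and 2.08 (SE 1.10 to 1.38 in both classes), with 0 called in either class. The adenocarcinomas included 2 poorly differentiated MetTrp53 tumours and 1 such Trp53 tumour, which held the highest miR-200c-3p levels. Genotype and this subtype cannot be fully told apart in that class. In a bulk tumour, fewer cells of a type and less RNA per cell cannot be told apart. Of 10 stromal and mesenchymal miRNAs 7 had a lower mean in MetTrp53 tumours (median -0.19, below 0 under every scaling tried), and the mean level of the list ran from 5.37 to 7.50 in MetTrp53 tumours and from 5.54 to 6.99 in Trp53 tumours. Of 8 leukocyte miRNAs 6 had a higher mean (median 0.24, as low as 0.05 when all mouse probes set the percentile), with list levels of 5.54 to 6.65 in MetTrp53 tumours and of 5.34 to 6.25 in Trp53 tumours. The endothelial list (2 tested, median -0.14), the erythroid list (3 of 4 tested, 0.00), the adipose list (4 tested, -0.20) and the neural list (3 of 4 tested, 0.22) had 0 members called, and the liver miRNA miR-122-5p was detected in 0 tumours of either genotype. The erythroid median is that of miR-486-3p, detected in 0 tumours of either genotype, and measures no blood content. miR-451, detected in all 8 tumours of each genotype, differed by -0.41, with levels of 8.12 to 11.01 in MetTrp53 and of 7.42 to 11.81 in Trp53 tumours. The neural median was -0.01 with normexp, the erythroid median between -0.11 and 0.00 under the other scalings, and the endothelial and adipose medians kept their sign. The 5 muscle miRNAs had a median difference of -0.47 and list levels of 3.61 to 7.60 in MetTrp53 tumours and of 3.61 to 7.73 in Trp53 tumours, with miR-499-5p at the floor. miR-133b-3p reached 9.91 in MetTrp53 5, 10.10 in Trp53 1 and 9.19 in Trp53 4, was 3.86 in Trp53 6, and lay at the floor in the other 12. Without MetTrp53 5, Trp53 1 and Trp53 4 the comparison of the genotypes again called 0 miRNAs, with 18 at an unadjusted p under 0.05.

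The spread within each genotype was large and concentrated in few miRNAs. The standard deviation over the 16 tumours was largest for miR-133b-3p (2.47), miR-200c-3p (2.38), miR-200b-3p (2.33), miR-429-3p (2.18), miR-133a-3p (2.05) and miR-205-5p (1.98), and among miRNAs detected in all 16 it was smallest for miR-99b-3p (0.13) and miR-29b-1-5p (0.14), both near the floor. miR-200c-3p stood at 9.64 in MetTrp53 3, 9.62 in MetTrp53 5 and 7.10 in MetTrp53 1, and at most at 4.71 in the other MetTrp53 tumours. In Trp53 tumours it stood at 9.84 in Trp53 3 and at most at 4.99 in the others. The tumours labelled poorly differentiated adenocarcinoma, MetTrp53 3, MetTrp53 5 and Trp53 3, thus held the 3 highest levels, whatever the genotype. miR-205-5p, of basal epithelial cells, was likewise highest in these 3 (8.41, 9.21 and 8.16). Trp53 2, an adenocarcinoma, departed from this pattern. It had high levels of the chromosome 4 cluster (miR-200b-3p 8.51, miR-429-3p 8.48, miR-200a-3p 5.87), with low levels of the chromosome 6 cluster (miR-200c-3p 4.60, miR-141-3p at the floor) and of miR-205-5p, which lay at the floor. It also had miR-31-5p at the floor, against 6.67 to 10.46 in the other Trp53 tumours. Trp53 4, labelled adenocarcinoma, had miR-200c-3p at 3.77 and miR-205-5p at the floor, within the range of the spindloid Trp53 tumours, and was 1 of the 3 tumours with muscle miRNAs. miR-132-3p was high in MetTrp53 2 (7.75), Trp53 4 (8.49) and Trp53 7 (8.21), and at most 5.86 elsewhere.

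**Figure D4:**
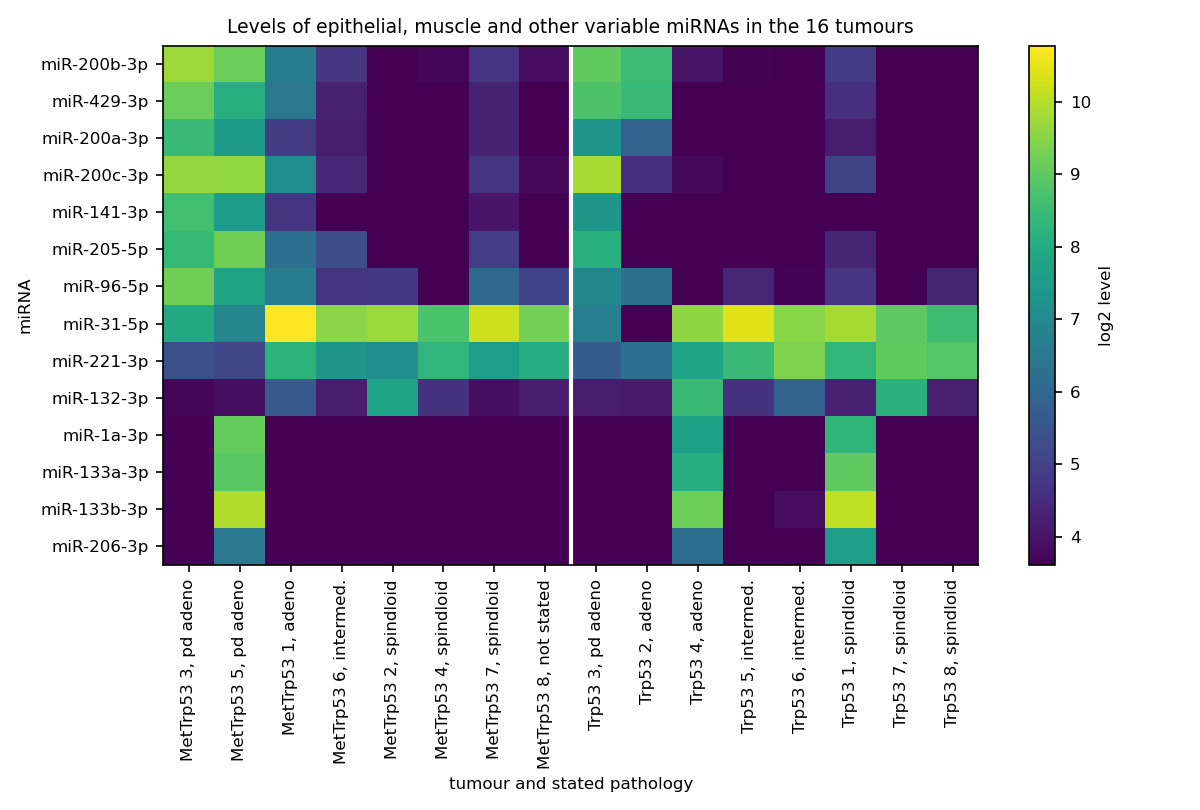
Log2 level (colour) of 14 miRNAs (rows) in the 16 tumours (columns), MetTrp53 left and Trp53 right of the white line, ordered within genotype by stated pathology (pd adeno, poorly differentiated adenocarcinoma). Colours are to be compared within a row; the epithelial rows are brightest in MetTrp53 3, MetTrp53 5 and Trp53 3, except that for miR-429-3p MetTrp53 5 (8.13) stands below Trp53 2 (8.48), and the muscle rows are above the floor in MetTrp53 5, Trp53 1 and Trp53 4 (miR-133b-3p also slightly in Trp53 6).

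Genotype accounted for 7.88% of the summed squared deviations of all 330 miRNAs over the 16 tumours, with 2 levels, and slide for 17.2%, with 5. In the 15 tumours with a stated pathology, pathology in 3 classes accounted for 24.8% and genotype for 8.82%. These shares grow with the number of levels and carry no test. With pathology as a covariate in those 15 tumours, 0 of 330 miRNAs were called between MetTrp53 and Trp53 (0.00%), and 25 lay at an unadjusted p under 0.05 (7.58%). The leading differences were of like size in that model, 0.93 for miR-652-5p (SE 0.24), 1.01 for miR-3968 (SE 0.35), -0.57 for let-7e-5p (SE 0.18) and -0.41 for miR-423-5p (SE 0.13), each with a limma adjusted p of 0.336.

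The spindloid class and the pooled adenocarcinoma class each held 3 tumours of each genotype. Among spindloid tumours 0 of 330 miRNAs were called between MetTrp53 and Trp53 (0.00%), and 15 lay at an unadjusted p under 0.05 (4.55%). The smallest p belonged to miR-3102-5p (difference 2.19, SE 0.53, limma adjusted p = 0.703). It stood at 9.81, 8.15 and 9.23 in the MetTrp53 tumours and at 7.64, 5.98 and 6.99 in the Trp53 tumours. miR-135a-1-3p (1.19, SE 0.37) and miR-1934-3p (0.53, SE 0.17) followed, each with an adjusted p of 0.806. miR-3091-5p and miR-351-3p were not well above background in any Trp53 tumour and were so in 2 of the 3 spindloid MetTrp53 tumours, MetTrp53 2 and MetTrp53 7. miR-3091-5p averaged 4.53 in spindloid MetTrp53 tumours and 3.61 in spindloid Trp53 tumours. With the spindloid Trp53 tumours set at the lowest level measured above background, the spindloid MetTrp53 mean was 1.62-fold higher for miR-3091-5p and 1.16-fold higher for miR-351-3p. That mean holds MetTrp53 4 at the floor, where its true level may be lower, so these folds are no lower bounds. The limma adjusted p was 0.806 for both. Without MetTrp53 4, 7 miRNAs were called in this class, among them miR-3102-5p, let-7b-5p (-0.98) and miR-30d-5p (-0.61), with 2 MetTrp53 tumours left. miR-3091-5p and miR-351-3p were also among the 7, but MetTrp53 4 was the only spindloid MetTrp53 tumour at the floor for them and the spindloid Trp53 tumours all lay at the floor. Nearly all of their values are then set by the floor, and nothing is read from these calls.

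Among adenocarcinomas, with the poorly differentiated ones included, 0 of 330 were called (0.00%), and 14 lay at an unadjusted p under 0.05 (4.24%). The smallest p belonged to miR-5117-3p (0.35, SE 0.10), miR-652-5p (1.09, SE 0.40), miR-5130 (-0.20, SE 0.07), miR-3963 (0.97, SE 0.37) and miR-3968 (1.48, SE 0.57), each with a limma adjusted p of 0.841. The values of miR-5117-3p and miR-5130 lie within 0.5 of the floor. These counts depended on single tumours. Without Trp53 3, the poorly differentiated tumour, 3 epithelial or inflammatory miRNAs were called, miR-200c-3p (4.60), miR-205-5p (4.33) and miR-146b-5p (3.13). Only Trp53 2 and Trp53 4 were then left on the Trp53 side. Both lie at the floor for miR-205-5p, so that its spread there is set by the floor. Without Trp53 4, miR-5130 alone was called. miR-5130 was above the floor in Trp53 2 and Trp53 3 and at the floor in the other 14 tumours, so that nothing is read from its call.

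The genotype difference itself was not shown to differ between spindloid tumours and adenocarcinomas, with 0 of 330 called (0.00%) and 6 at an unadjusted p under 0.05 (1.82%). miR-27a-3p, miR-24-3p and miR-23a-3p, which can come from 1 transcript, were 3 of the 5 with the smallest p. Their MetTrp53 minus Trp53 differences were -0.60, -0.64 and -0.61 in spindloid tumours and 0.42, 0.57 and 0.17 in adenocarcinomas, and the differences of these were -1.02 (SE 0.32), -1.21 (SE 0.44) and -0.77 (SE 0.33), each with a limma adjusted p of 0.982. miR-5117-3p (-0.44, SE 0.14) and miR-30d-5p (-0.69, SE 0.25) were the others. Without MetTrp53 4, 3 miRNAs were called, miR-30d-5p (-0.94) and the floor-bound miR-3091-5p and miR-351-3p, from which nothing is read.

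**Figure D5:**
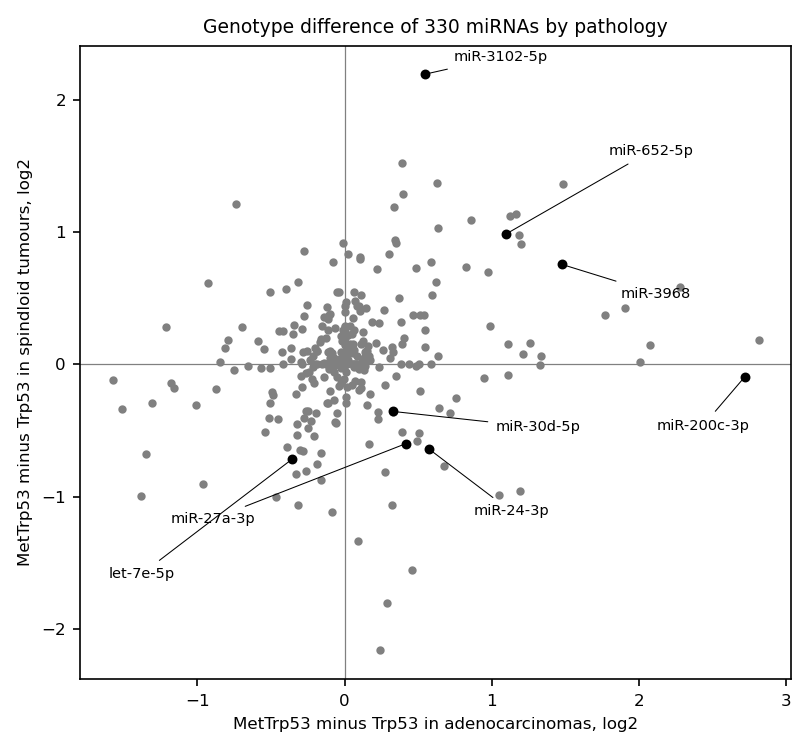
MetTrp53 minus Trp53 difference in mean log2 level of each of the 330 miRNAs in adenocarcinomas (x axis, 3 tumours each) and in spindloid tumours (y axis, 3 tumours each). miR-652-5p and miR-3968 lie above 0 on both axes, miR-3102-5p highest on the spindloid axis, and miR-27a-3p and miR-24-3p below 0 in spindloid tumours and above 0 in adenocarcinomas; 0 miRNAs were called on either axis.

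Several miRNAs had large differences in mean between spindloid tumours and adenocarcinomas inside a genotype. Those named here are the 5 with the smallest p of each contrast. Their size follows in part from that choice and is not set against the genotype difference. With 3 tumours on each side the median SE was 0.35, against 0.23 in the main comparison. In MetTrp53 tumours, spindloid minus adenocarcinoma, miR-200c-3p had means of 3.98 in spindloid tumours and 8.79 in adenocarcinomas (difference -4.81, SE 1.38) and miR-200b-3p of 4.04 and 8.51 (-4.48, SE 1.24), both with a limma adjusted p of 0.316. miR-183-5p, also epithelial (-2.69, SE 0.77), let-7b-5p (-0.99, SE 0.25) and miR-30d-5p (-0.88, SE 0.18, adjusted p = 0.195) completed the 5 with the smallest p, and 0 of 330 were called (0.00%), with 25 at an unadjusted p under 0.05 (7.58%). In Trp53 tumours 0 of 330 were called (0.00%), with 16 at an unadjusted p under 0.05 (4.85%). There the leading miRNAs were miR-27a-3p (0.77, SE 0.23), miR-106b-5p (-0.76, SE 0.24), miR-222-3p (2.28, SE 0.79), miR-199b-5p (1.74, SE 0.62) and miR-30a-5p (-1.33, SE 0.49), each with a limma adjusted p of 0.880. Without MetTrp53 4, 4 miRNAs were called within MetTrp53, let-7b-5p, miR-30d-5p and the floor-bound miR-3091-5p and miR-351-3p, and without Trp53 4, 6 within Trp53, miR-200b-3p (-4.73), miR-429-3p (-4.69) and miR-183-5p (-2.58) among them, with the floor-bound miR-5130.

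Both genotypes were on each of the 5 slides, so that the difference could be taken within slides of 3 or 4 of these tumours. let-7e-5p was lower in MetTrp53 tumours on all 5 slides, with differences of -0.15, -0.65, -0.96, -0.49 and -1.04. miR-125a-5p, miR-99b-5p and miR-423-5p were lower and miR-652-5p, miR-3968 and miR-720 higher on all 5. Over all 330 miRNAs, 10 were lower on every slide (3.03%) and 4 higher on every slide (1.21%). Neither share was tested against chance. The miRNAs just named were picked for a small p or a large difference over the same tumours. Their shared direction on the slides is therefore no separate support. On slide 1 miR-5100 differed by -0.03 and miR-3102-5p by -0.51, against differences above 0 on the other 4 slides. Likewise miR-3963 differed by -0.05 on slide 2 and miR-5097 by -0.20 on slide 4, and each lay above 0 on the other 4. miR-205-5p, with a difference of 1.34 overall (SE 0.90), differed by -2.27 on slide 2, which held Trp53 3, and by between 0.65 and 3.65 on the others. With slide as a block, 0 miRNAs were called between the genotypes and 20 lay at an unadjusted p under 0.05.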

How the data were processed

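Per the labels' protocols, RNA came from snap-frozen tissue and carried Cy3 on Agilent miRNA arrays of 1 colour. Per the file headers, Feature Extraction 10.7.3.1 wrote the spot intensity values of the deposited scanner files. The authors' deposited value table holds log2 values, and the submitters' processing notes name RMA; its column medians lie between 1.72 and 1.91 and its centring is not known.

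Outlier spots were dropped from the processed signal. Each array was scaled by its 75th percentile over 220 probes that every array detected, floored at 0.0212 of the percentile and put on the log2 scale, and the spots and probes of a miRNA were averaged. No spot was saturated. Of 1122 mouse miRNAs, 330 were tested, namely those that 7 or more tumour arrays, or both normal ones, detected. limma 3.58.1 (R 4.3.3) was fitted to all 25 arrays with 4 groups, and to the 15 tumours with a stated pathology for the pathology contrasts, with Benjamini-Hochberg adjustment over the 330 and a threshold of 0.05. The code was tested on simulated data. The number of arrays limits the precision.

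The scanner files hold no mean spot signal, so normexp (offset 50) used the median signal and its local background. Members and lists were chosen with earlier results of these data known. Named miRNAs were the 10 with the smallest p, the 10 with the largest difference in each direction among those well above background on at least 8 of the 16 arrays, the 10 with the largest and smallest SD, the 5 with the smallest p of each pathology contrast, and the members of the 18 lists, of which miR-106a-5p, miR-299a-5p and miR-486a-5p had no matching name on the array. The motif run and the tumours named one by one were chosen after their values were seen. Sequences come from RefSeq, which gave one for 253 of the 330.

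The alternatives were normexp, quantile normalisation, a percentile taken over all mouse probes, the authors' table, the brightest probe, other floors and detection filters, a model of only the 16 tumours, a block for slide or for scan date, a robust eBayes with a trend, the mean of tumours with a shared title number, parity as a covariate, an exact permutation, and each tumour left out. The following 3 were chosen after seeing the data: the 13 tumours with a stated parity without the covariate, the comparison without the 3 tumours with muscle miRNAs, and without the poorly differentiated adenocarcinomas.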

Additional observations from a re-analysis of the deposited data

Results flagged for a closer look

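In 14 of the 114 groups checked (57 miRNAs in 2 genotypes), 1 tumour stood apart from the other 7 of its genotype, its gap to the nearest tumour being over 0.526 of the whole range. For normally distributed values chance flags about 1 group in 20. That rate does not hold here, because some of the miRNAs were picked for a large SD. Where the other 7 tumours lie at the floor, any value above it is flagged. The 14 flags are therefore not to be read against that rate, and miRNAs of 1 tumour share their source.

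MetTrp53 5 alone was above the floor among MetTrp53 tumours for miR-133b-3p (9.91), miR-1a-3p (9.08) and miR-133a-3p (8.94), miRNAs of skeletal and heart muscle. MetTrp53 2 stood apart for miR-98-5p (8.21) and miR-132-3p (7.75).

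Among Trp53 tumours, Trp53 3, the poorly differentiated adenocarcinoma, stood apart for miR-200c-3p (9.84), miR-146b-5p (8.19), miR-205-5p (8.16) and miR-141-3p (7.41). Trp53 2 stood apart for miR-877-5p (4.85), miR-1934-3p (4.16) and miR-3091-5p (3.65), all close to the floor of 3.61. Trp53 4 stood apart for let-7a-5p (11.88) and miR-423-5p (6.19).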

How the results depend on the processing

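The count of 0 called miRNAs between MetTrp53 and Trp53 tumours was 0 under all 36 alternatives run, and 0 under all 18 with pathology as a covariate; the smallest adjusted p over the 36 lay between 0.097 and 0.604. The count at an unadjusted p under 0.05 was 23, and between 12 (normexp) and 43 (the 13 tumours with a stated parity, without the covariate) under the alternatives, with between 19 and 35 when each tumour was left out. Its split into 13 higher and 10 lower became 7 and 31 when all mouse probes set the percentile, 8 and 4 with normexp, and 14 and 16 in the authors' deposited table. That percentile moved the median difference of the 160 miRNAs detected on all arrays to -0.24, against 0.01, so differences under it are to be read against that shift. Of 37 single miRNAs of the main comparison recomputed under each alternative, 32 kept their direction, while miR-652-5p ranged from 0.22 to 0.95, let-7e-5p from -0.90 to -0.52 and miR-423-5p from -0.72 to -0.19. The other 5 had differences of at most 0.20 in size. When all mouse probes set the percentile, let-7g-5p was -0.26, miR-21-5p -0.085, miR-34a-5p -0.082 and miR-98-5p -0.21. let-7g-5p was -0.025 with the brightest probe and -0.075 without the poorly differentiated tumours. miR-98-5p was -0.013 in the authors' deposited table. let-7i-5p was 0.066 with parity as a covariate and 0.047 without the 3 tumours with muscle miRNAs. With each tumour left out, let-7g-5p ranged from -0.049 to 0.082, let-7i-5p from -0.14 to 0.059, miR-98-5p from -0.15 to 0.16 and miR-21-5p from -0.00021 to 0.31.

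Within classes, calls depended on the setting, and the cause was not tested. In spindloid tumours the percentile over all mouse probes gave 3 calls, and leaving out each tumour between 0 and 7. In adenocarcinomas leaving out each tumour gave between 0 and 3 calls, and for the difference between classes between 0 and 3. Spindloid minus adenocarcinoma gave 12 calls in MetTrp53 with normexp, 3 with that percentile, and between 0 and 4 when each tumour was left out, and in Trp53 between 0 and 6. With normexp, miR-1934-3p in spindloid tumours (-0.034) and miR-5130 in adenocarcinomas (0.067) reversed. No paired analysis was possible because replicate numbers only name tumours. Without a detection filter, the 420 miRNAs that varied could be fitted. Probes near background limit miR-652-5p, miR-877-5p, miR-3091-5p, miR-351-3p, miR-5117-3p and miR-5130.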
